A study of Mus musculus with 12 samples.

Results

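The genes described here encode the exchangers, cotransporters and pumps that move sodium, potassium, calcium, chloride, bicarbonate and protons across cell membranes. They were taken by name from the gene table of the study: the solute carrier families Slc4, Slc8, Slc9, Slc12 and Slc24, the sodium pump subunits (Atp1a and Atp1b) and the calcium pumps (Atp2a, Atp2b and Atp2c). The rule found 53 of 32285 genes, and it uses no measured value. RNA was sequenced from the caudal nucleus pulposus, the soft centre of the tail's intervertebral discs, of C57BL/6-129/SvEv mice aged 12 months. The 6 WT mice and the 6 Opa1cKO mice all received tamoxifen at 100 mg/kg on 3 days in a row, and 1 library was made from each mouse. In Opa1cKO, AcanCre, a tamoxifen-activated recombinase driven from the aggrecan gene, which disc and cartilage cells use, deleted Opa1 at 3 months of age, and 9 months followed before sampling. Opa1 encodes a GTPase that fuses the inner membranes of mitochondria. The labels used here do not state whether WT mice carried AcanCre or a floxed allele. The series asks how loss of Opa1 changes the transcriptome of this tissue.

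Cells of the nucleus pulposus live in an acidic, poorly oxygenated and hyperosmotic matrix, where they make lactic acid by glycolysis and must export protons and keep their volume. The sodium pump spends ATP to hold the sodium and potassium gradients, and secondary transporters draw on those gradients to expel protons (Slc9), import bicarbonate (Slc4), expel calcium (Slc8 and Slc24) or load and unload chloride with cations (Slc12). Calcium pumps clear calcium into the endoplasmic reticulum (Atp2a), out of the cell (Atp2b) or into the Golgi (Atp2c).

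Libraries held 37268242 to 56618266 counts, and a two-sided exact permutation test of these totals between genotypes gave p = 0.502. Opa1 itself had 69.3 to 118 CPM (counts scaled to a common library size) in WT and 30.3 to 47.7 in Opa1cKO, with no overlap (log2 fold change -1.22, SE 0.116, edgeR adjusted p = 3.05e-05). Sex-linked reads contradicted the labelled sex of 4 libraries, WT 4, WT 5, WT 6 and Opa1cKO 4, so a call that ended without them is given with its value there. The fit included labelled sex, and without those 4 libraries the only same-sex contrast left is WT 1 to 3 against Opa1cKO 5 and 6. Of the 9 nucleus pulposus markers all were tested and none was called. The notochord factor T had a mean of 2719 ± 245 CPM in WT and of 2882 ± 274 CPM in Opa1cKO (SD, n = 6 each). Others had larger differences that did not pass: the proteoglycan gene Acan was at 13062 ± 2325 and 8628 ± 2968 CPM (edgeR adjusted p = 0.103), the notochord factor gene Foxa2 at 6.87 ± 2.48 and 3.15 ± 2.17 CPM (adjusted p = 0.106) and the collagen gene Col2a1 at 607.8 ± 151.7 and 1261 ± 971 CPM (adjusted p = 0.109). Of the 8 immediate early and heat shock genes 3, Egr1, Hspa1a and Hspa1b, rose and none fell, and the summed level was 700.2 to 5837 CPM in WT and 2064 to 13892 in Opa1cKO. Their median log2 fold change was 1.63, against 0.01 over all genes tested. The largest, of Fosb (2.94, edgeR adjusted p = 0.0545) and Fos (2.2, edgeR adjusted p = 0.0572), did not pass. The call on Egr1 ended in 13 of 24 alternatives, that on Hspa1a in 6 and that on Hspa1b in 5, and without the libraries of contradicted sex Hspa1a had adjusted p = 0.0884 and Hspa1b adjusted p = 0.233. Among 8 macrophage and osteoclast markers Cd68 rose and Csf1r fell, and with the libraries of contradicted sex left out Csf1r did not pass (adjusted p = 0.128). The part of these genes in the results below was not tested. In whole tissue, fewer cells of a type and less RNA per cell cannot be told apart.

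Most members did not pass the test, and those that fell came 1 each from Atp1b, Slc4, Slc8, Slc9 and Slc12. Of the 34 members with enough counts to test, 1 rose and 5 fell at an edgeR adjusted p below 0.05. Over all 15229 genes tested, 5.1% were called higher and 5.13% lower, 10.2% in all, against 17.6% of the tested members. The median log2 fold change was 0.04 over the tested members and 0.01 over all genes. Those that fell were the pump subunit Atp1b2, the bicarbonate importer Slc4a4, the calcium exchanger Slc8a3, the endosomal proton exchanger Slc9a9 and the chloride loader Slc12a2. Of the 34 tested members, 1 lay wholly higher in CPM in Opa1cKO and 4 wholly lower, with no overlap between genotypes. Those 4 were the members that fell, all but Slc9a9. Over all tested genes 6.41% had ranges with no overlap, 2.77% lying wholly higher and 3.64% wholly lower.

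**Figure D1:**
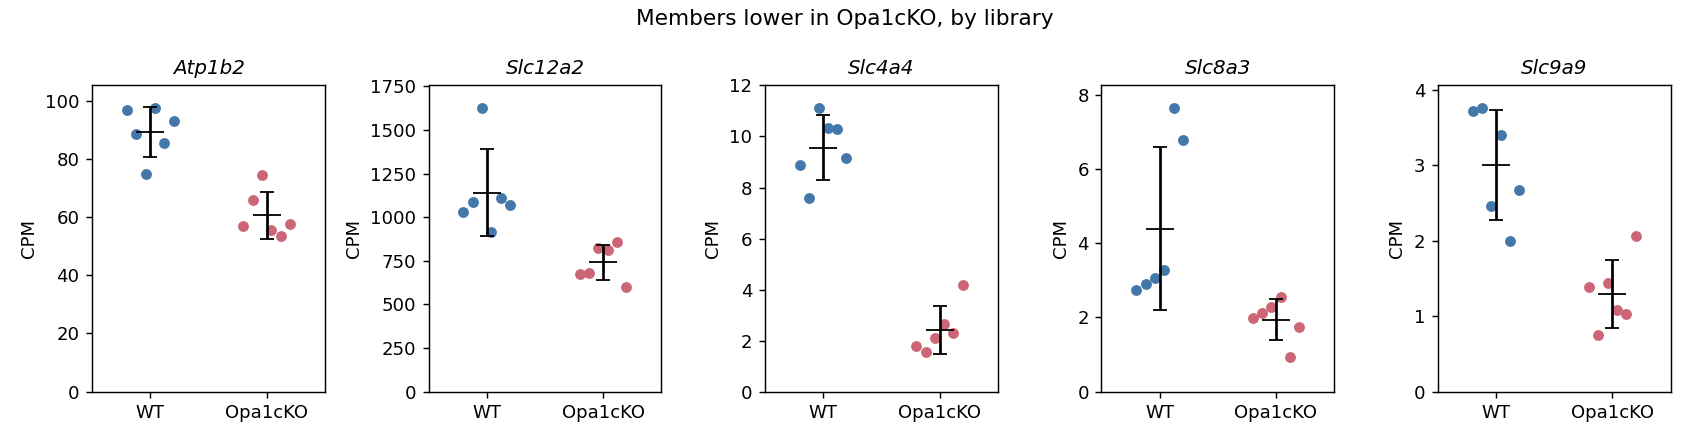
CPM in each library (points, in order of replicate number) of the 5 members called lower in Opa1cKO, with the mean and SD of each genotype (n = 6). Slc4a4 lies lower in every Opa1cKO library, up to 4.17 CPM, than in any WT library, from 7.59 CPM, and Slc9a9 is the one whose ranges overlap.

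**Figure D2:**
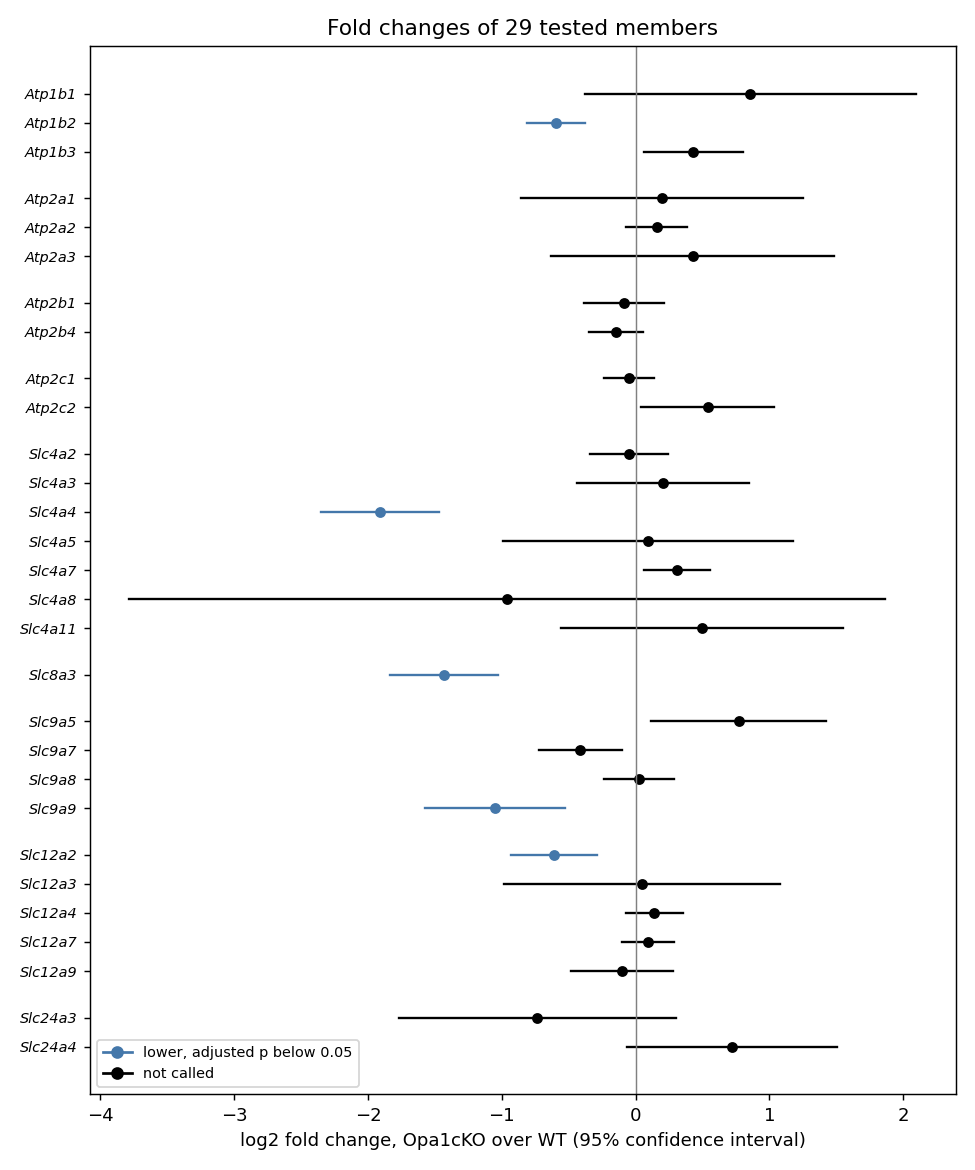
Log2 fold change of Opa1cKO over WT with its 95% confidence interval for 29 of the 34 tested members, grouped by family. Members called lower are coloured, and the widest interval, of Slc4a8, runs from -3.78 to 1.86.

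The other 19 members did not reach the count needed for a test, and 3 of them, Atp1b4, Slc9a4 and Slc24a1, had no count in any library. Their mean deposited TPM (a level scaled for transcript length and library size) in WT was at most 0.698. The heart exchanger gene Slc8a1 had at most 29 counts in a library. The kidney cotransporter genes Slc12a1 and Slc12a3 were at a mean of 0.0029 and 0.125 TPM in WT, and only Slc12a3 was tested.

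**Figure D3:**
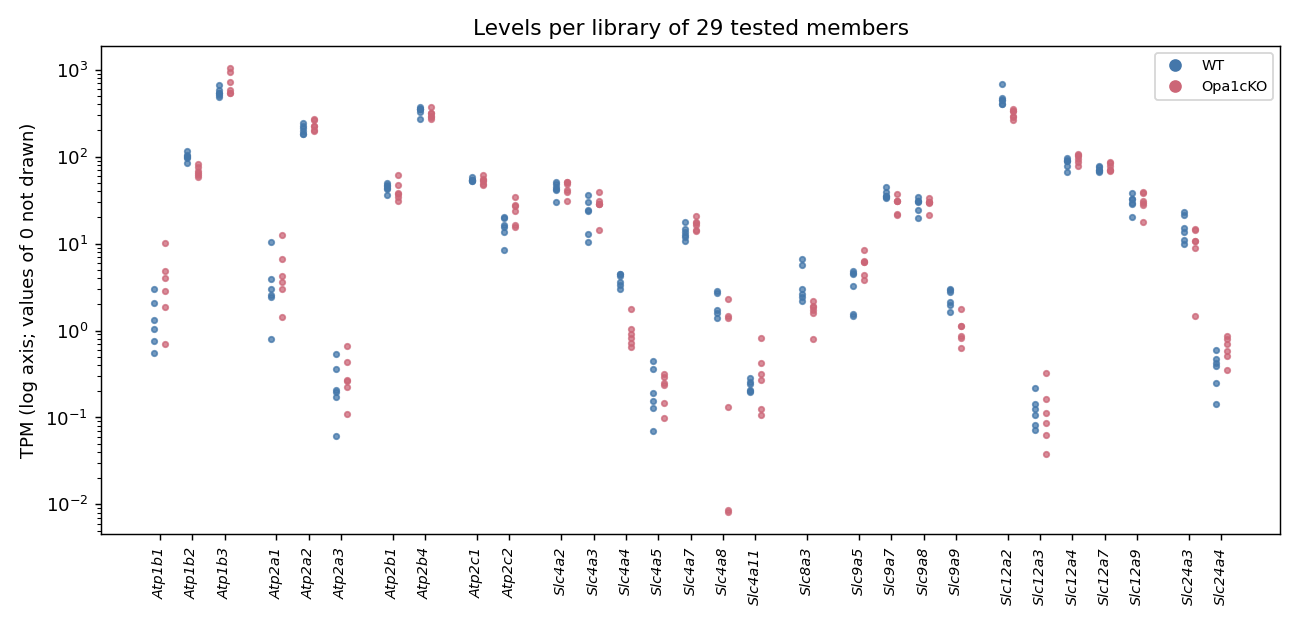
Deposited TPM of 29 tested members in each library, on a log axis, with WT and Opa1cKO side by side and values of 0 not drawn. By WT mean, the members drawn span from Atp1b3, at 549.4 TPM, down to Slc12a3, at 0.125 TPM, and single libraries lie beyond both.

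The sodium pump is a catalytic alpha subunit joined to a beta subunit that carries it to the membrane. Atp1b2, a beta subunit first known from glia (ENSMUSG00000041329, chromosome 11, 69599736 to 69605942, minus strand of mm10), fell. It ran from 74.8 through a median of 90.8 to 97.6 CPM in WT and from 53.5 through 57.2 to 74.6 CPM in Opa1cKO. The genotypes met at the edge: WT 3, the lowest WT library, had 74.77 CPM and Opa1cKO 3, the highest of its genotype, had 74.59 CPM. The log2 fold change was -0.59 (SE 0.101, edgeR adjusted p = 0.00245), and -0.64 without the 4 libraries of contradicted sex (adjusted p = 0.0657). The 8 neuron and glia markers had no call among 4 tested, with summed levels of 140.3 to 195.3 CPM in WT and 109.5 to 218.6 CPM in Opa1cKO. Most of that sum was S100b, which cartilage and disc cells also express, at 136.8 to 191.6 CPM in WT and 106.0 to 216.0 CPM in Opa1cKO. The astrocyte marker Gfap and the neuronal marker Rbfox3 were at no more than 0.0867 and 0.0234 CPM in any library.

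Atp1b3, the main beta subunit of this tissue, did not pass. WT libraries ran from 251.1 through a median of 279.6 to 348.5 CPM and Opa1cKO libraries from 286.3 through 335.0 to 511.9 CPM. Opa1cKO 3 and 6 stood highest, at 510.8 and 511.9 CPM, and the other Opa1cKO libraries lay between 286.3 and 375.0 CPM. Its log2 fold change was 0.43 (95% interval 0.06 to 0.80, edgeR adjusted p = 0.131), and it passed without Opa1cKO 5, at 0.57 (adjusted p = 0.0389).

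Per unit length, Atp1b2 made up 12.9 to 16.7% of summed beta subunit TPM in WT libraries and 6.16 to 11.5% in Opa1cKO libraries, with no overlap. Atp1b3 held 82.9 to 87.0% in WT and 87.9 to 93.7% in Opa1cKO. Atp1b1, the usual partner in kidney epithelium, held under 1% in every library and was not called, at 0.966 ± 0.573 CPM in WT and 2.75 ± 2.31 CPM in Opa1cKO (edgeR adjusted p = 0.378). Of its exonic length 18.66% lies over exons of Nme7 on the opposite strand.

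**Figure D4:**
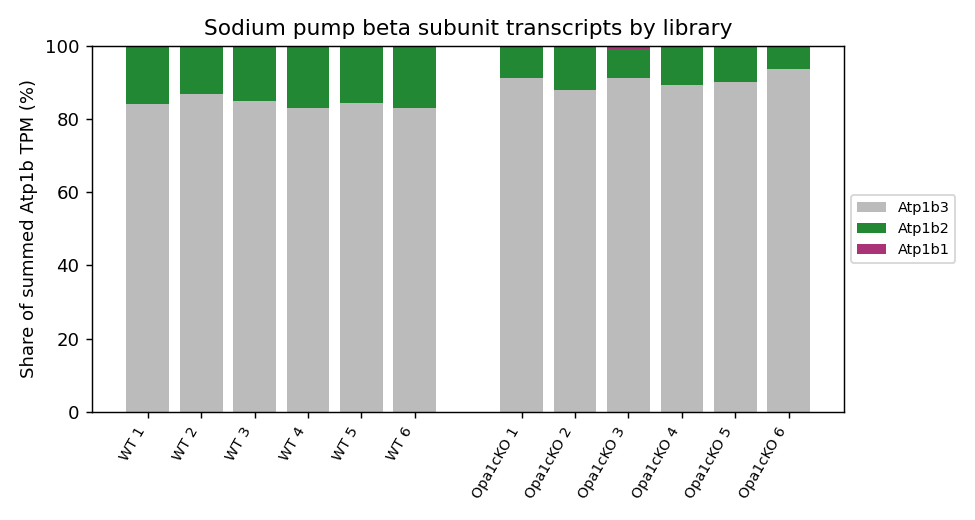
Share of summed Atp1b TPM held by Atp1b3, Atp1b2 and Atp1b1 in each library, as stacked bars. The Atp1b2 share is 12.9 to 16.7% in WT libraries and 6.16 to 11.5% in Opa1cKO libraries.

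Small membrane proteins tune these pumps. In a list of 15 of them (the FXYD family, phospholamban and its relatives, and the NKAIN family) 7 were tested, 2 rose and none fell, with a median log2 fold change of 0.63. Fxyd6, an FXYD regulator of the sodium pump, went from 861.3 ± 129.8 to 1258 ± 156 CPM. All Opa1cKO libraries, from 1050 CPM, were above all WT libraries, up to 998.3 CPM. Its log2 fold change was 0.57 (SE 0.127, edgeR adjusted p = 0.0117), and 0.49 without the libraries of contradicted sex (adjusted p = 0.176). Fxyd5 went from 12.0 ± 2.88 to 33.9 ± 26.4 CPM (log2 fold change 1.62, edgeR adjusted p = 0.0254), with ranges that overlapped. Opa1cKO 6 had 84.6 CPM of it, and without that library the log2 fold change was 0.82 (adjusted p = 0.184). The call on Fxyd5 ended in 9 of 24 alternatives, among them those without WT 2 (adjusted p = 0.0544), without WT 6 (adjusted p = 0.0629) and without the libraries of contradicted sex (adjusted p = 0.134). The regulators of the muscle calcium pump were barely counted: Pln, Sln and Mrln were not tested, and Strit1 had no count. Sln was at 0.0103 ± 0.0253 CPM in WT and 0.19 ± 0.137 CPM in Opa1cKO, and at most 0.345 CPM in any library.

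Slc4 genes carry bicarbonate, some inward with sodium and some in exchange for chloride. By TPM in WT the order was Slc4a2 at 42.9 ± 7.23, Slc4a3 at 23.0 ± 9.88, Slc4a7 at 13.6 ± 2.53 and Slc4a4 at 3.85 ± 0.604. Of 10 members 7 were tested, 1 fell and none rose.

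Slc4a4, the electrogenic sodium bicarbonate cotransporter (ENSMUSG00000060961, chromosome 5, 88886818 to 89239653, plus strand), fell to 0.266 of its WT level. WT libraries ran from 7.59 through a median of 9.73 to 11.1 CPM and Opa1cKO libraries from 1.56 through 2.21 to 4.17 CPM. All Opa1cKO libraries were below all WT libraries, and Opa1cKO 6 was the nearest to them. The log2 fold change was -1.91 (SE 0.207, edgeR adjusted p = 0.000106). Its call held in all 24 alternatives, with a log2 fold change between -2.19 and -1.25.

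Slc4a7, the electroneutral sodium bicarbonate cotransporter, was not called, at 45.2 ± 6.89 CPM in WT and 54.7 ± 6.54 CPM in Opa1cKO (log2 fold change 0.31, 95% interval 0.06 to 0.55, edgeR adjusted p = 0.106). It ran from 38.5 through 43.7 to 56.1 CPM in WT and from 47.3 through 55.2 to 64.5 CPM in Opa1cKO, and it passed without Opa1cKO 5 (0.40, adjusted p = 0.0417). The chloride bicarbonate exchangers Slc4a2 and Slc4a3 had log2 fold changes of -0.05 (95% interval -0.34 to 0.24) and 0.21 (-0.44 to 0.85). Slc4a8, a sodium-driven exchanger, was split within genotypes: WT 5, Opa1cKO 1, Opa1cKO 4 and Opa1cKO 6 had 0, 18, 1 and 1 counts, while the other libraries had 151 to 388. Its log2 fold change of -0.96 had an SE of 1.27.

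The 250 bases before the annotated start of 3 members that fell are printed here, since these are the called members for which the RefSeq table (GRCm38.p6) gave a start with no annotated exon in the window. For Slc4a4 the table holds 2 starts, at 88887260 and 89027966 of chromosome 5, whose transcripts the gene count pools. The window of the second start is printed. All are 5′ to 3′ on the gene's own strand: Slc4a4 at chr5:89027716-89027965, Slc8a3 at chr12:81333181-81333430 and Slc9a9 at chr9:94669642-94669891. Capitals would mark ACGTG or GCGTG, the core of the hypoxia response element, on either strand; neither occurs in these windows.
Slc4a4: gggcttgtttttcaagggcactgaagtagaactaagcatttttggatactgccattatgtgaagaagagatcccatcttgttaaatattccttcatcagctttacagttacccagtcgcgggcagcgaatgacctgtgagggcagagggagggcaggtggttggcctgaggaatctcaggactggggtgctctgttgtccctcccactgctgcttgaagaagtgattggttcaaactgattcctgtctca
Slc8a3: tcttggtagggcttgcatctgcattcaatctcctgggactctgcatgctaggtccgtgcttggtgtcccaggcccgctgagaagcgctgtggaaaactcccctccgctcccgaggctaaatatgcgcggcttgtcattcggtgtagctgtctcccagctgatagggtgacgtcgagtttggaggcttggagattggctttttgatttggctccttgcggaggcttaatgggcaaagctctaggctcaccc
Slc9a9: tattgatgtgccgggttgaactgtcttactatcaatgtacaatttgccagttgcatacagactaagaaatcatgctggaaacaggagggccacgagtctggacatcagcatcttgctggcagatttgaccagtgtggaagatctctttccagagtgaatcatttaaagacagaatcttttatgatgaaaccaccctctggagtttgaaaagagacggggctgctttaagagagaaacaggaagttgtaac
The window before the first Slc4a4 start, not printed, held 1 match that begins 119 bases before the start. Windows of 22 of 51 member promoters (43.1%) held a match, as did 38.6% of the 32851 promoters in the table, and 37 of the 53 members were in it.

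Slc8 and Slc24 proteins expel calcium in exchange for sodium, the latter together with potassium. Slc8a3 was the only Slc8 gene tested (ENSMUSG00000079055, chromosome 12, 81197915 to 81333180, minus strand). It ran from 2.73 through a median of 3.16 to 7.65 CPM in WT and from 0.942 through 2.04 to 2.54 CPM in Opa1cKO. All Opa1cKO libraries were below all WT libraries, although WT was uneven: WT 5 and WT 6 had 7.65 and 6.77 CPM, and WT 1 to 4 had 2.73 to 3.27 CPM. Its log2 fold change was -1.43 (SE 0.187, edgeR adjusted p = 0.000407). Both high WT libraries are among those of contradicted sex, and without those the log2 fold change was -1.10 (adjusted p = 0.110). With all libraries kept, the call was weaker once labelled sex was not used. The log2 fold change was -1.183 with sex taken from sex-linked reads (edgeR adjusted p = 0.047). Without a sex term it was -1.179 (edgeR adjusted p = 0.0205). The Slc24 genes Slc24a3 and Slc24a4 had log2 fold changes of -0.73 (95% interval -1.77 to 0.30) and 0.72 (-0.06 to 1.51), and neither passed. Opa1cKO 6 had 1.38 CPM of Slc24a3, and the other Opa1cKO libraries had 8.77 to 15.0 CPM. Without Opa1cKO 6 the log2 fold change of Slc24a3 was -0.35.

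None of the 7 tested calcium pump genes of 9 passed, with adjusted p from 0.160 for Atp2c2 to 0.845 for Atp2a1 (edgeR). Atp2b4, a plasma membrane pump, had the highest level of them, at 336.9 ± 34.6 TPM in WT and 308.2 ± 34.9 TPM in Opa1cKO. It ran from 783.3 through 917.6 to 975.7 CPM in WT and from 724.5 through 807.8 to 938.7 CPM in Opa1cKO (log2 fold change -0.14, 95% interval -0.35 to 0.06). Atp2a2, the endoplasmic reticulum pump of most tissues, ran from 236.7 through 274.6 to 307.2 CPM and from 262.3 through 289.8 to 361.6 CPM (log2 fold change 0.16, 95% interval -0.07 to 0.38). Both pairs of ranges overlapped.

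Atp2c2, a Golgi calcium pump of secretory epithelia, had 5.95 through 11.3 to 13.9 CPM in WT and 10.9 through 17.4 to 24.2 CPM in Opa1cKO. Opa1cKO 3 and 6 lay within the WT range and the other 4 above it (log2 fold change 0.54, 95% interval 0.04 to 1.04, edgeR adjusted p = 0.160). Atp2a1, the fast skeletal muscle pump, was highest in WT 5 and Opa1cKO 4, at 7.76 and 9.61 CPM. Those libraries also had the highest summed skeletal muscle markers, 17.8 and 18.2 CPM, against 1.45 to 7.24 CPM in the rest. Exons of Rabep2 on the opposite strand cover 21.94% of the exonic length of Atp2a1.

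Slc9 proteins export protons in exchange for sodium, and Slc9a7, Slc9a8 and Slc9a9 act in endosomes and the Golgi. Of 9 Slc9 genes 6 were tested and only Slc9a9 was called.

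Slc9a9 (ENSMUSG00000031129, chromosome 9, 94669909 to 95230445, plus strand) fell from a low level. WT ran from 1.99 through a median of 3.03 to 3.76 CPM and Opa1cKO from 0.750 through 1.24 to 2.06 CPM. Opa1cKO 6, the highest of its genotype, overlapped WT 5, the lowest of its own. The change on the log2 scale was -1.05 (SE 0.244, edgeR adjusted p = 0.0148). It was -0.98 without WT 6 (adjusted p = 0.0611) and -1.10 without the libraries of contradicted sex (adjusted p = 0.190), and with the replicate number as a block it was -1.10 (adjusted p = 0.0510).

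Slc9a7, on the X chromosome, lay at the edge of the test. It had 27.5 through 29.5 to 37.7 CPM in WT and 18.0 through 24.5 to 32.1 CPM in Opa1cKO, and only Opa1cKO 3 exceeded the lowest WT library (log2 fold change -0.41, 95% interval -0.72 to -0.10, edgeR adjusted p = 0.0856). It passed without that library (-0.49, adjusted p = 0.0225), with sex taken from sex-linked reads (-0.46, adjusted p = 0.0477), with DESeq2 (adjusted p = 0.0435) and with limma-voom (adjusted p = 0.0387). Slc9a5, a plasma membrane exchanger known mainly from brain, had 1.70 through 4.31 to 5.60 CPM in WT and 4.45 through 6.80 to 9.20 CPM in Opa1cKO (log2 fold change 0.77, edgeR adjusted p = 0.126). WT 1 and WT 2 were its lowest libraries, and without the libraries of contradicted sex it passed at 1.76 (adjusted p = 0.0411). Slc9a8, of the Golgi, had a log2 fold change of 0.03 (95% interval -0.24 to 0.29).

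In a list of 8 partners of these exchangers and of bicarbonate transporters 7 were tested, 1 rose and none fell, with a median log2 fold change of -0.16. The scaffold gene Slc9a3r2 rose from 8.11 ± 1.63 to 12.8 ± 1.5 CPM with no overlap (log2 fold change 0.61, edgeR adjusted p = 0.0210), and did not pass without WT 5 (adjusted p = 0.0533), WT 6 (0.0670) or Opa1cKO 5 (0.0509), without the libraries of contradicted sex (0.261), or with the replicate number as a block (0.0833). Chp1, a calcium-binding partner of sodium proton exchangers, was at 173.4 ± 22.3 and 142.2 ± 11.5 CPM (edgeR adjusted p = 0.101).

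Slc12a2 loads chloride together with sodium and potassium and swells the cell, while the potassium chloride cotransporters, Slc12a4, Slc12a5 and Slc12a7 among them, release both ions and shrink it. Of 9 Slc12 genes 6 were tested, and only Slc12a2 (ENSMUSG00000024597) was called. Its level was 475.3 ± 103.1 TPM in WT and 311.9 ± 34.2 TPM in Opa1cKO. WT libraries ran from 916.8 through a median of 1080 to 1629 CPM and Opa1cKO libraries from 601.0 through 744.4 to 857.3 CPM. No library of one genotype lay in the range of the other, and WT 3 stood well above the rest of WT, which reached 1108 CPM.

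The log2 fold change of Slc12a2 was -0.61 (SE 0.150, edgeR adjusted p = 0.0200), or 0.655 of WT. It did not pass without WT 5 (-0.62, adjusted p = 0.0527), without Opa1cKO 6 (-0.51, adjusted p = 0.0742) or without the libraries of contradicted sex (-0.78, adjusted p = 0.131). Slc12a4 and Slc12a7 were not called. Slc12a4 ran from 62.5 through 82.7 to 85.7 CPM in WT and from 74.7 through 89.7 to 99.7 CPM in Opa1cKO, overlapping in part (log2 fold change 0.14, 95% interval -0.07 to 0.35). The interval was -0.10 to 0.29 for Slc12a7, and the change of Slc12a2 lies outside both intervals. Slc12a5, the neuronal chloride extruder, was not tested, with at most 26 counts in a library.

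Slc12a2 is switched on by phosphorylation through WNK kinases and their targets Stk39 and Oxsr1, and the same kinases switch off the potassium chloride cotransporters. In a list of 12 genes of this control all were tested, 1 fell and none rose, with a median log2 fold change of -0.03. The gene that fell was Stk39, which encodes the kinase SPAK. It went from 348.3 ± 39.0 to 219.8 ± 33.2 CPM, and its lowest WT library, at 289.5 CPM, was above its highest Opa1cKO library, at 278.5 CPM. Its log2 fold change was -0.68 (SE 0.116, edgeR adjusted p = 0.00255). It was at -0.80 without the libraries of contradicted sex (adjusted p = 0.0633). Its close relative Oxsr1 was at 73.5 ± 8.44 and 73.3 ± 5.91 CPM.

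Wnk1, the first of the WNK kinases, was at 4367 ± 637 CPM in WT and 3598 ± 190 CPM in Opa1cKO, with overlapping ranges (log2 fold change -0.28, edgeR adjusted p = 0.152). Wnk4 was at 6.19 ± 1.36 and 11.4 ± 4.87 CPM (edgeR adjusted p = 0.0534), and the salt-responsive kinase gene Sgk1 at 322 ± 64.0 and 521.3 ± 153.2 CPM (edgeR adjusted p = 0.0726). Neither passed.

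**Figure D5:**
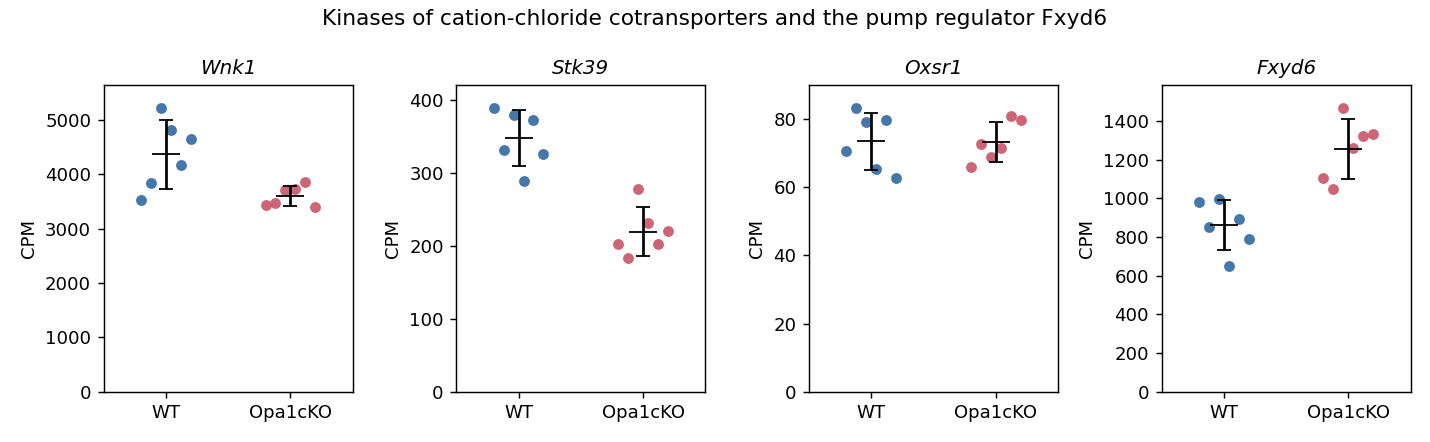
CPM in each library (points) of Wnk1, Stk39, Oxsr1 and Fxyd6, with the mean and SD of each genotype (n = 6). Stk39 is lower and Fxyd6 higher in every Opa1cKO library than in any WT library, and Wnk1 and Oxsr1 overlap.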

How the data were processed

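Bulk RNA sequencing was analysed for 12 libraries. Per the labels, a stranded, ribosome-depleting kit was used with an input of 50 ng and 14 PCR cycles. The submitters' processing notes name STAR 2.7.11b and the mm10 genome. Which program, annotation and strand setting made the counts is not given in the sources. The deposited count table holds whole-number counts for 32285 genes, and all of its columns matched a sample. The deposited TPM table, made by the authors with transcript lengths that no source states, held all 53 members and was used for levels between genes and as an alternative unit. For these libraries 1 CPM equals 37 to 57 reads, some of which may be PCR copies.

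Counts were fitted with edgeR 4.0.16 in R 4.3.3: genes were kept by filterByExpr (by genotype, minimum count 10), scaled with TMM, and put through a robust quasi-likelihood test of genotype with labelled sex as covariate. Benjamini-Hochberg adjustment ran over all 15229 genes tested, with calls made at adjusted p below 0.05. Log2 fold changes are Opa1cKO over WT. The fit was tested on simulated counts. Single values used a two-sided exact permutation test. Every pair of libraries differed by more than sampling noise (smallest chi-square per degree of freedom 33). Alternatives covered the sex term, a replicate block, DESeq2 1.42.0, limma-voom (limma 3.58.1), other scalings and low-count filters, log2 TPM (pseudocount 1 or 0.1), and each library left out.

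The members, gene lists and rules were chosen with earlier results of these data known. Values by library are given for called members, members whose ranges do not overlap, the 8 with the highest WT TPM and the 5 with the smallest p among those not called. Results for some members are not reported here, while counts and medians over the members include all of them. Every called gene of the related lists is named, and up to 3 of each marker list. Slc4a8, Slc4a1, Atp1b1, Atp2a1 and Slc24a3 were named after their values were seen, as were the genes named to describe low levels, other family members or the regulators that did not pass. Positions and overlaps come from GENCODE M21, on the same assembly.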

Additional observations from a re-analysis of the deposited data

Results flagged for a closer look

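Each genotype's 6 values of 29 tested members, of Slc4a1 and of the 7 called genes of the related lists were searched for a single library far from the other 5. The gap to the nearest library was divided by the range of the group and compared with Dixon's 95% critical value. Of 74 groups 5 passed it, where chance gives about 5%. Slc12a2 was at 1629 CPM in WT 3, and the next WT library had 1108 CPM. Slc12a4 was at 62.5 CPM in WT 2, below 78.4 CPM in the next. Slc9a8 was low in Opa1cKO 3, at 43.6 CPM against 57.5 CPM in the next. Atp2a1 was at 7.76 CPM in WT 5, against 2.99 CPM in the next WT library, beside the highest WT sum of skeletal muscle markers. Slc4a1, the anion exchanger of red cells, was at 4.03 CPM in WT 2 and at most 0.188 CPM in other WT libraries. The neutrophil markers summed to 23.4 CPM in WT 2 and at most 0.998 CPM in other WT libraries, and the part of other cells in that value was not tested.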

How the results depend on the processing

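Fold changes were recomputed under 24 alternatives for 20 of the 34 tested members. Of these 20, 2 that were not called changed sign: Atp2a1, at 0.20, ran from -0.082 without Opa1cKO 4 to 0.634 without WT 5, and Atp2b4 went from -0.14 to 0.002 without the libraries of contradicted sex. The cause was not tested. Without the 4 libraries of contradicted sex, 2 members were called higher and 1 lower, and over all genes 188 were called higher and 137 lower. With the replicate number as a block, 351 genes were called higher and 418 lower, and DESeq2 called 1189 higher. Leaving out 1 library gave 1 to 3 members higher, 4 to 6 lower, and 323 to 1002 genes higher and 496 to 1008 lower. The members that entered were Atp1b3 and Slc4a7 without Opa1cKO 5, and Slc9a7 without Opa1cKO 3. The replicate numbers do not pair the mice: deviations of same-numbered libraries correlated at -0.217 to 0.043, and 0 libraries correlated best with their own number. Among members the block ended only the call on Slc9a9, at -1.10 (adjusted p = 0.0510). Low counts limit Slc4a4, Slc8a3 and Slc9a9, whose lowest libraries had 77, 35 and 37 counts. Genotype and labelled sex are unevenly matched, with 4 females in WT and 2 in Opa1cKO. By sex-linked reads the match is also uneven: WT 4 and Opa1cKO 1, 2 and 3 were male and all other libraries female. Every p measures the spread between these mice.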

Other observations

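Transporters of related families outside the naming rule included the copper pumps. In a list of 26 such genes 15 were tested, 1 rose and 2 fell, with a median log2 fold change of 0.09. Atp7a, the copper pump of most tissues, ran from 62.6 to 74.3 CPM in WT and from 49.6 to 58.2 CPM in Opa1cKO, with no overlap (log2 fold change -0.36, edgeR adjusted p = 0.0106). Atp7b, the copper pump of liver, went from 2.45 ± 0.737 to 1.13 ± 0.366 CPM with ranges that overlapped (log2 fold change -0.96, edgeR adjusted p = 0.0342). Atp13a3, a polyamine transporter of the same pump superfamily, went from 221.0 ± 26.0 to 267.5 ± 18.4 CPM, also with overlap (log2 fold change 0.32, edgeR adjusted p = 0.0345). With the libraries of contradicted sex left out none of the 3 passed (0.135, 0.241 and 0.344 in that order, as adjusted p). Of 24 alternatives the call on Atp7a ended in 3, that on Atp7b in 8 and that on Atp13a3 in 10. Among them, leaving out WT 5 gave adjusted p = 0.137 for Atp7b and 0.101 for Atp13a3, and leaving out WT 6 gave 0.0509 for Atp7a and 0.0927 for Atp13a3. Atp7b also did not pass without WT 1 (0.0558), WT 3 (0.0612), Opa1cKO 4 (0.0507) or Opa1cKO 6 (0.0961). Atp13a3 did not pass without WT 4 (0.0537) or without Opa1cKO 1 (0.0607), 2 (0.05), 5 (0.0688) or 6 (0.0557). Slc8b1, the mitochondrial sodium calcium exchanger, was at 51.7 ± 2.73 and 53.8 ± 8.71 CPM (edgeR adjusted p = 0.963), and the sulfate transporter of cartilage Slc26a2 at 136.2 ± 38.4 and 184.7 ± 107.2 CPM (edgeR adjusted p = 0.294).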
